A study of Mus musculus with 12 samples.

Results

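Peaks of accessible chromatin were described at the genes of sphingosine-1-phosphate signalling in mouse medullary thymic epithelial cells: the receptor genes S1pr1, S1pr2, S1pr3, S1pr4 and S1pr5, the kinase genes Sphk1 and Sphk2, the exporter gene Spns2 and the lyase gene Sgpl1. These were 9 of the 21631 protein-coding genes of the mouse RefSeq table. The family was chosen by a measured value, the gain of a peak counted for S1pr4 in Aire-deficient cells, so everything measured at S1pr4 in that comparison is a description with no test. A peak was counted for a gene when at least 1 bp of it lay in the gene's annotated span (build mm10) or within 1 kb of either end, together called the gene's window. By this rule the 12 libraries held between 9 and 35 peaks each at the 9 genes, and merging overlapping peaks over all libraries gave 47 regions of 228401 in the genome.

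Accessible chromatin was measured by ATAC-seq, in which a transposase cuts and tags DNA that is not covered by nucleosomes or other proteins. The cells were mTEChi, the mature medullary epithelial cells of the thymus, sorted from enzymatically digested thymi of C57BL/6 mice aged 4 to 7 weeks, and the libraries are labelled as nucleosome-free chromatin. AIRE, the autoimmune regulator that these cells express, drives transcription of tissue-restricted genes in the thymus. There were 12 libraries, 2 in each of 6 groups: Aire -/- (the knockout), Aire +/C313Y and Aire +/C442G, which each carry 1 changed Aire allele beside 1 normal allele, and a separate pair of Aire +/+ wild types for each of these 3 genotypes. A mutant pair and its wild-type pair are called a set here. The pairs were matched by the form of their titles, which is an assumption, and the labels do not say whether 2 libraries of a group came from different mice or from pools, so the spread measured here may be technical.

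The lists differed in length, and this touches every result below. The knockout lists held 85826 and 94976 peaks against 34715 and 34047 in their wild types. The C313Y lists held 75830 and 57280 against 73976 and 55861, and the C442G lists 122326 and 115034 against 93659 and 94458. Read counts were not analysed here, so depth is unknown, and the absence of a peak means that none was called. The defining mTEChi genes had peaks in every library, in 10 to 12 of 12 listed genes, and Aire itself had one in all 12 libraries, while the T cell genes Cd8a and Rag1 and the B cell gene Ms4a1 had none in any. Markers of other cells had peaks as well, beside 63.5% to 77.3% of all protein-coding genes per library. Counts per library were 4 to 6 of 6 cortical epithelial genes, 3 to 7 of 12 T cell genes and 2 to 4 of 6 B cell genes. They were 3 to 7 of 9 dendritic cell and macrophage genes, 2 to 6 of 8 endothelial genes and 3 to 7 of 7 fibroblast and mural cell genes.

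**Figure D1:**
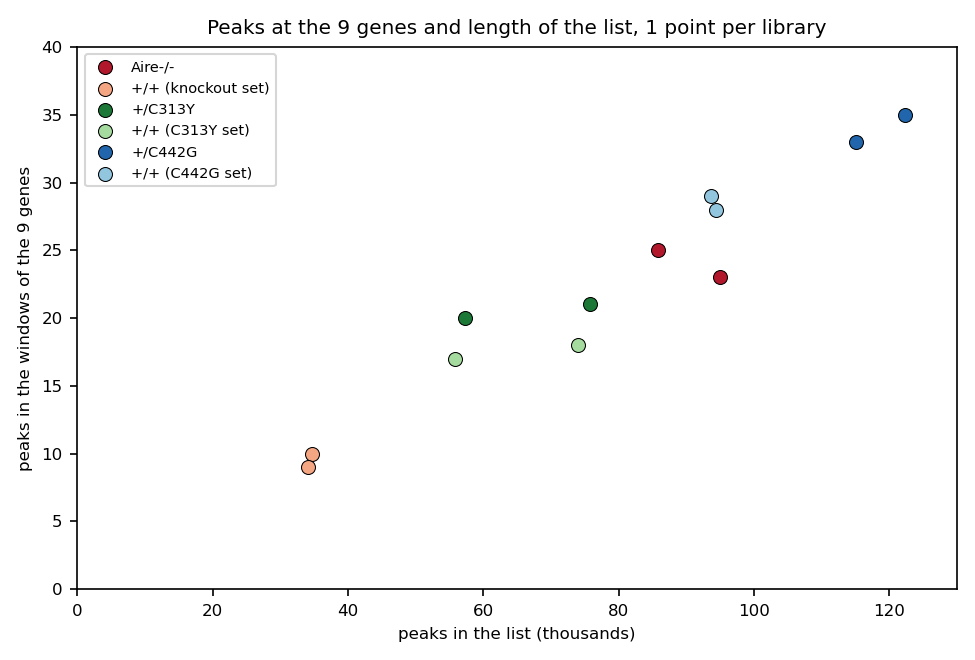
Peaks in the windows of the 9 genes (y axis, number) against all peaks in the library's list (x axis, in units of 1000 peaks), with 1 point per library coloured by group. The 2 wild types of the knockout set lie lowest, at 10 and 9 peaks, and the 2 +/C442G libraries highest, at 35 and 33.

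Longer lists held more peaks at these genes, as the plot of peaks against list length shows. Per 10000 peaks of a list, the 9 genes held between 2.42 (the second Aire -/- library) and 3.49 (the second +/C313Y library). The knockout libraries, at 2.91 and 2.42, overlapped their wild types, at 2.88 and 2.64.

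Sphingosine-1-phosphate is a lipid signal made from the sphingosine of membrane lipids by sphingosine kinases, carried out of the cell by transporters such as SPNS2, and broken down irreversibly by the lyase SGPL1. Outside the cell it acts on G protein-coupled receptors that steer cell migration, vascular barrier function and survival. In the thymus the gradient of this lipid, low in the tissue and high in blood and lymph, draws mature T cells that carry S1PR1 out of the organ, and in lymph nodes SPNS2 in endothelium supplies it to the lymph.

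The sequences just before the transcription starts are shown first, because the question at each gene is whether the chromatin at its start was accessible. RefSeq's table of promoters for GRCm38.p6, which shares its coordinates with mm10, held 13 entries for 8 of the 9 genes, and S1pr1 had none. Each sequence is the 250 bases upstream of the start, 5′ to 3′ on the gene's strand, and capitals mark matches to any of 8 motifs searched on both strands: GGGCGG (GC box), TGANTCA (AP-1), TGACGTCA (cAMP response element), CCGGAAG (ETS), an NF-kB-type motif, CACGTG (E-box), CCAAT and TATAAA. S1pr4 and its neighbour Ncln are given because the peak counted for S1pr4 lay at the start of Ncln, S1pr2 and Sgpl1 as members with a peak at the start in every library, and S1pr5 as one with such a peak in some libraries. The S1pr4 window is chr10:81500138-81500387, minus strand; Ncln is chr10:81496364-81496613, minus strand; S1pr2 is chr9:20976794-20977043, minus strand; S1pr5 is chr9:21248444-21248693, minus strand; and Sgpl1 is chr10:61147685-61147934, minus strand.
S1pr4: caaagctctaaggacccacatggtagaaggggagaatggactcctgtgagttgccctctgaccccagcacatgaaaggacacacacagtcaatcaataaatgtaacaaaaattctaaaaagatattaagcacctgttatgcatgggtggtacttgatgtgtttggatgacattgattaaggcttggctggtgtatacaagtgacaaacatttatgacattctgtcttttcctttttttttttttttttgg
Ncln: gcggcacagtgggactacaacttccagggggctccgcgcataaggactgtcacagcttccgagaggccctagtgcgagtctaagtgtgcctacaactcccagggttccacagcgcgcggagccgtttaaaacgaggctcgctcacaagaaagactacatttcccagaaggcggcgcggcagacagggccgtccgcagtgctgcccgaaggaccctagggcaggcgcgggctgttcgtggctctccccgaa
S1pr2: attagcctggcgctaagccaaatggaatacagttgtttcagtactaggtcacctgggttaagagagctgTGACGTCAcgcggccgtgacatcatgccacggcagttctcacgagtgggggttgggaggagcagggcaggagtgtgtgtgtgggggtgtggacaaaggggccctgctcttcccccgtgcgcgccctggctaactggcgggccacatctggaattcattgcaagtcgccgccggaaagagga
S1pr5: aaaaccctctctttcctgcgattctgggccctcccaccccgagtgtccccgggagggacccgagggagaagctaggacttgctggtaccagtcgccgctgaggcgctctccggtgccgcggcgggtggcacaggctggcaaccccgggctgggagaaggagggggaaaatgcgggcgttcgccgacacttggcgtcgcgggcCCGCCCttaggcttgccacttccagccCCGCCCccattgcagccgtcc
Sgpl1: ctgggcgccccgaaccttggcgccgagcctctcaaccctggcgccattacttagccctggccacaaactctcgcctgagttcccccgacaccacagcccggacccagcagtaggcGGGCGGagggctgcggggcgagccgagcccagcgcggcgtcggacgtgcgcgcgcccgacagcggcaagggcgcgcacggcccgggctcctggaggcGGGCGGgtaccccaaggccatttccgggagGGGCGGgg

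A start was counted as having a peak when a peak overlapped these 250 bases or the 50 bases after them. The start of S1pr4 had a peak in 0 of 12 libraries. Its 250 bases held 0 CpG dinucleotides and 38.8% G and C, against a median of 10 CpG and 55.6% over 21045 promoters. The starts of Ncln (21 CpG, 62.8%), S1pr2 (14 CpG, 59.2%) and Sgpl1 (31 CpG, 74.8%) each had a peak in 12 of 12. S1pr5 departed from this order, with 22 CpG and 69.2% G and C but a peak at its start in 4 libraries. Sgpl1 carried 3 GC boxes and S1pr5 carried 2, a motif found in 43.1% of all promoters of this length. The single capital run of S1pr2, 181 bases before its start, is a cAMP response element, found in 1.94% of promoters. No motif of the 8 was in the S1pr4 or the Ncln window. Of the 13 entries of the family, 4 had a peak in all 12 libraries and 3 in none, beside 41% and 35.4% of all promoters. These matches describe letters only.

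S1pr4 (chr10:81497745-81500137, minus strand) codes for a receptor found mainly on lymphoid and other blood cells. No library had a peak inside its span. The gain in the knockout came from 1 region, at chr10:81496135-81496871, which was called in 12 of 12 libraries and lies beyond the 3′ end of S1pr4, across the annotated start of Ncln, the gene of the endoplasmic reticulum protein nicalin. What differed was how far this peak reached towards S1pr4.

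The peak was 511 and 502 bp wide in the Aire -/- libraries and 260 and 266 bp in their wild types. It measured 294 and 299 bp in +/C313Y against 478 and 284 bp, and 519 and 530 bp in +/C442G against 514 and 299 bp. The groups therefore did not overlap in the knockout set and overlapped in the C313Y set. In the C442G set they did not overlap either, with 519 and 514 bp as the nearest values. The share of all regions that separate in width this way was not counted. Mean widths (SD, n = 2 each, no test) were 507 ± 6.36 bp against 263 ± 4.24 bp in the knockout set. They were 297 ± 3.54 against 381 ± 137 bp in the C313Y set, and 525 ± 7.78 against 407 ± 152 bp in the C442G set. In 5 libraries, both Aire -/-, both +/C442G and the first C442G wild type, the near edge lay 874 to 927 bp from S1pr4 and so inside the window. In the other 7 it lay 1107 to 1146 bp away, which is just outside.

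**Figure D2:**
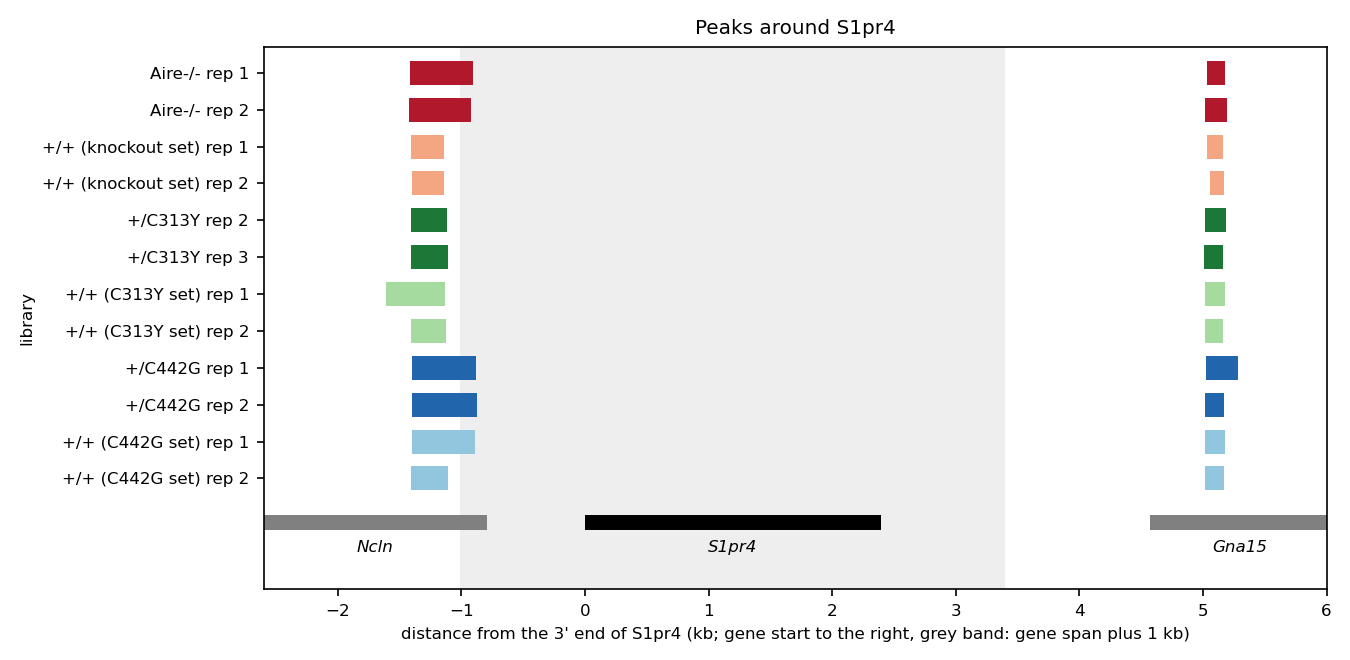
Peaks around S1pr4 by library, with the distance from the 3′ end of the gene in kb on the x axis and 1 row per library, coloured by group; the lower bars are the gene spans and the grey band is the window. The left peak, at the start of Ncln, is present in all 12 rows and enters the grey band in 5, and no row has a peak over S1pr4 itself.

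The strength of the Ncln peak, where the lists give one, was the authors' fold enrichment over background, a value of that peak in its own list that cannot be compared directly between lists. It was 10.3 and 12.1 in Aire -/- against 5.97 and 6.30 in the wild types of that set, and 12.3 and 12.7 in +/C442G against 9.31 and 13.4. Its rank, the percentage of peaks in the same list with a lower −log10 p, was 98.3 and 98.8 in Aire -/- and 85.8 and 86.4 in those wild types, and at least 98.1 in the C442G set. It was thus among the stronger peaks of every list with values, the short ones included. A second peak in all 12 libraries, 113 to 261 bp wide, lay 2617 to 2663 bp upstream of the S1pr4 start, inside the span of Gna15, which codes for a G protein alpha subunit. With a window of 0, 500, 1300 or 2500 bp, or with at least 50% of the peak required inside it, S1pr4 was not called gained. The bp counted for S1pr4 were 93 and 74 in Aire -/-, 116 and 127 in +/C442G, 113 and 0 in the C442G wild types and 0 in all others.

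S1pr1 (chr3:115710433-115715055) codes for the receptor that takes T cells out of the thymus and keeps endothelium tight. A region inside the gene, chr3:115712640-115713093, was called in 10 of 12 libraries and missing only from the 2 wild types of the knockout set. Its peak was 110 and 107 bp wide in Aire -/-, 102 and 100 bp in +/C313Y, 108 and 98 bp in the C313Y wild types, 417 and 126 bp in +/C442G and 115 and 159 bp in the C442G wild types. The 4 wild types that carried it, at 98 to 159 bp, thus overlapped the mutants, of which all but 1 lay between 100 and 126 bp.

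The fold of this peak was 9.71 and 8.07 in Aire -/-, 13.5 and 11.6 in +/C442G and 9.96 and 6.82 in the C442G wild types. Its rank ran from 83.1% to 97.9%. Of the regions of the family gained in the knockout set, a call made for 13.9% of all regions, it was the 1 still called when each list of the set was shortened to its strongest peaks, as many as the shortest list holds. How many of all gained regions stay called with such lists was not counted. The second S1pr1 region, chr3:115714702-115715656 across the higher-numbered end of the gene, was called in all 12 libraries, with a fold of 3.61 to 5.02 and ranks of 9.30% to 64.5%.

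**Figure D3:**
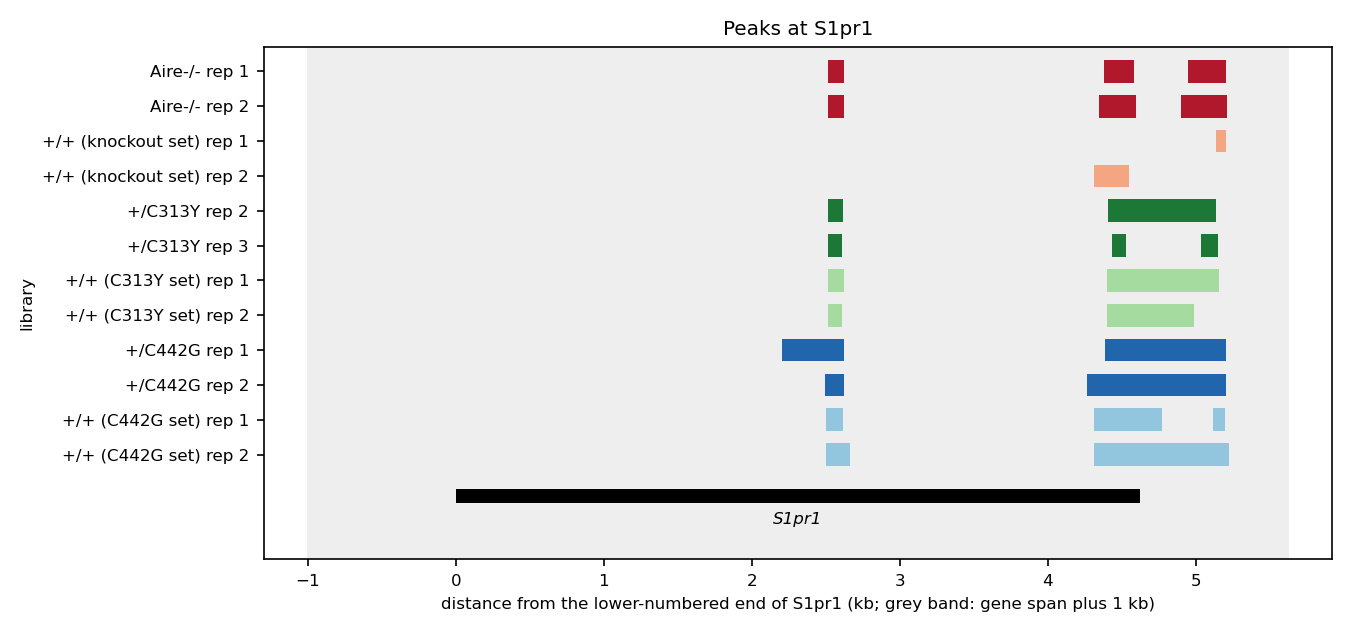
Peaks at S1pr1 by library, with the distance from the lower-numbered end of the gene in kb on the x axis and 1 row per library, coloured by group; the black bar is the gene and the grey band its window. The narrow peak near 2.5 kb is present in 10 rows and absent from the 2 wild types of the knockout set, and the peaks across the right end of the gene are present in all 12.

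The covered length of S1pr1, the bp of peaks inside its window, was 567 and 668 bp in Aire -/- against 66 and 236 bp, 838 and 305 bp in +/C313Y against 861 and 682 bp, and 1233 and 1060 bp in +/C442G against 653 and 1068 bp. Only the knockout groups did not overlap, with the mutants higher, as in 56.7% of all genes. S1pr1 is expressed by endothelium and T cells as well, and markers of both were counted in the same libraries. Of 8 endothelial genes, 4 and 6 had a peak in Aire -/- and 2 and 2 in the wild types of that set, with a summed covered length of 3317 and 3545 bp against 993 and 972 bp. The endothelial gene Cdh5 had no peak in those 4 libraries, and Pecam1 had one in all 12. Of 12 T cell genes, 7 and 6 had a peak against 4 and 3, with 3251 and 2475 bp against 687 and 1208 bp. Over all protein-coding genes, 73.9% and 74.9% had a peak in Aire -/- against 64.2% and 63.5% in the wild types of that set. The mTEChi list moved too, from 4363 and 4076 bp in those wild types to 10729 and 10581 bp in Aire -/-. The part of cell composition or list length in the S1pr1 values was not tested.

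S1pr2 (chr9:20965952-20976793), whose receptor restrains cell migration, had a region at its start in all 12 libraries (131 to 585 bp wide, fold 3.87 to 6.01). A second region, inside the gene, chr9:20975496-20975950, had the same pattern as the inner S1pr1 region, present in 10 libraries and missing from the knockout set's wild types. Its fold was 5.21 and 4.81 in Aire -/- and 3.69 to 5.44 in the C442G set, and it was in all 4 other wild types. Covered length was 401 and 503 bp in Aire -/- against 379 and 249 bp, 761 and 770 bp in +/C313Y against 235 and 633 bp, and 759 and 545 bp in +/C442G against 571 and 598 bp. The mutants lay above the wild types without overlap in the first 2 of these sets, as 56.7% and 21.2% of all genes did.

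S1pr3 (chr13:51408618-51422797), a receptor best known from heart and vascular muscle, had its strongest peak in the interior and not at its start. The interior region, chr13:51418530-51418876, was called in all 12 libraries with a fold of 5.39 to 11.4 and ranks of 70.3% to 95.8%. The region at the start was called in 10 libraries, with a fold of 3.98 to 5.21, and was missing from 1 Aire -/- library and from 1 of its wild types. Covered length was 929 and 220 bp in Aire -/- against 404 and 149 bp, 685 and 311 bp in +/C313Y against 349 and 371 bp, and 664 and 728 bp in +/C442G against 680 and 842 bp. All 3 sets overlapped.

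S1pr5 (chr9:21242917-21248443), the receptor of natural killer cells and oligodendrocytes, had a peak in its window in 5 libraries, as few as S1pr4. A peak lay at its start in 4 libraries, 1 of each group of the C313Y and C442G sets, at 108 to 162 bp and with a fold of 3.66 and 3.89 where given. One further +/C442G peak of 83 bp lay inside the gene. Its covered length was 0 bp in all 4 libraries of the knockout set, 113 and 0 bp in +/C313Y against 0 and 108 bp, and 83 and 151 bp in +/C442G against 0 and 162 bp. No set separated, and the 3 peaks in lists with strengths ranked at most 33.1%.

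The kinase genes differed from each other. Sphk1 (chr11:116530836-116536675), the inducible kinase, had 5 RefSeq starts and 4 regions, 1 for every 1.96 kb of window, the highest density of the 9 genes. The entry with the TATA box, 31 bases before the first start, had a peak in 0 libraries. The next 2 entries, with an AP-1 match (found in 6.17% of promoters), had one in 10, and the last 2, with an E-box (6.7%) and a CCAAT box (35.6%), in 5. A counted peak need not cover the motif. In the second Aire -/- library it began at position 116531818, past the AP-1 match, which lies 50 bases before the start at 116531837. Covered length was 497 and 750 bp in Aire -/- against 0 and 86 bp, 911 and 615 bp in +/C313Y against 738 and 354 bp, and 642 and 618 bp in +/C442G against 562 and 866 bp. The knockout groups did not overlap, with the mutants higher as in 56.7% of all genes, and the other 2 sets did. Its strongest region, chr11:116534324-116534498 inside the gene, was called in 11 libraries with a fold of 4.68 to 8.03, and the missing library was the first wild type of the knockout set.

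Sphk2 (chr7:45709463-45718002), whose kinase also works in the nucleus, had the smallest mean difference between mutants and wild types, -0.02 on the log2 scale. Both RefSeq starts had a peak in all 12 libraries, and both peaks also lay in the window of Rpl18, a ribosomal protein gene, so the 2 genes cannot be told apart here. The region at the outer start was 176 to 249 bp wide in all 12 libraries. Its fold was 6.89 and 7.37 in Aire -/- against 4.28 and 5.69, and 6.81 and 8.52 in +/C442G against 6.40 and 6.33, and its rank ran from 60.4% to 95.9%. Covered length was 480 and 579 bp in Aire -/- against 456 and 461 bp, 500 and 489 bp in +/C313Y against 431 and 869 bp, and 917 and 1314 bp in +/C442G against 1123 and 1017 bp.

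Spns2 (chr11:72451638-72489976), the exporter, had no peak at the RefSeq start of its promoter entry, which lies inside the annotated span at position 72475027 on the minus strand. A peak did lie across the higher-numbered end of the span, which is the 5′ end of a gene on the minus strand. This region, chr11:72489901-72490167, was called in 11 libraries (fold 4.42 to 6.70). Another, chr11:72484788-72485413 inside the gene, was also called in 11. Covered length was 696 and 409 bp in Aire -/- against 272 and 105 bp, 962 and 370 bp in +/C313Y against 561 and 444 bp, and 975 and 960 bp in +/C442G against 558 and 749 bp. The mutants lay above the wild types without overlap in the knockout and C442G sets, the latter as in 29.3% of all genes.

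Sgpl1 (chr10:61098642-61147684), the lyase, held 17 of the 47 regions. Its start region, chr10:61147148-61148030, was the widest constant peak of the family, with a median of 792 bp over 12 libraries and a fold of 4.74 to 6.64. The other 16 regions were weaker and less regular: 6 were seen in a single library. Covered length was 1528 and 1821 bp in Aire -/- against 522 and 894 bp, 1056 and 906 bp in +/C313Y against 881 and 1154 bp, and 3177 and 2972 bp in +/C442G against 2950 and 2090 bp. A region of 206 bp inside the gene, chr10:61108334-61108539, was called in all 6 mutant libraries and in 1 wild type, the second of the C442G set. It was the 1 region of the family gained in more than 1 set, the knockout and C313Y sets, as 1.45% of all regions without a peak in those 4 wild types were. With lists of equal length, for which no share of all regions was counted, it was still gained in the C313Y set. In the knockout set it was not, as 1 of the 2 mutants kept it. Its fold was 4.02 and 5.55 in Aire -/-, 4.73 and 5.57 in +/C442G and 3.86 in that wild type, and its width was 124 and 95 bp in +/C313Y, whose lists give no fold.

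**Figure D4:**
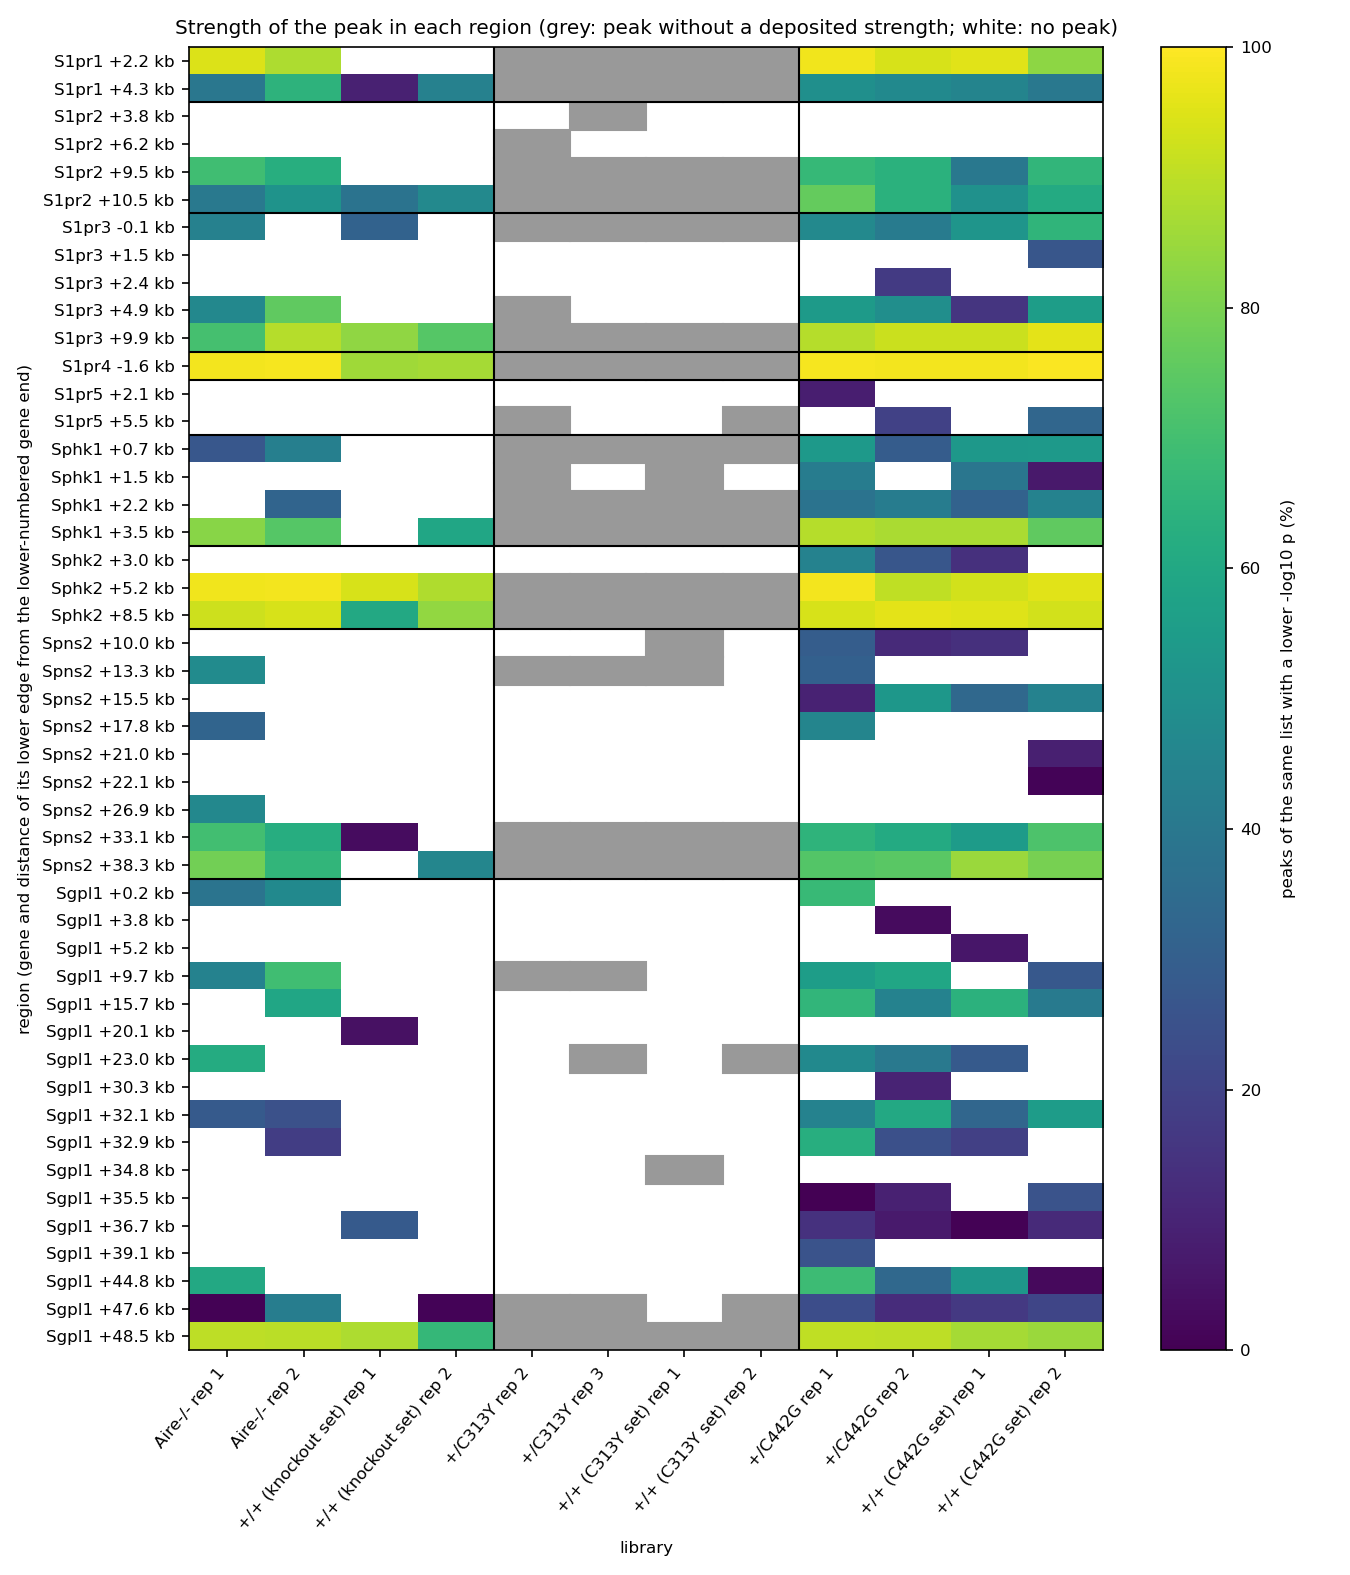
Rank of the strongest peak (colour, percentage of peaks of the same list with a lower −log10 p) in each of the 47 regions (rows, named by gene and distance from its lower-numbered end in kb) and each library (columns). White means no peak and grey a peak in a list without strengths. The white cells are most frequent in the 2 wild types of the knockout set, and 7 rows are filled in all 12 columns.

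Presence was then compared within each set, with gained meaning a peak in both mutants and in neither wild type, and lost the reverse. A peak in all 12 libraries was found in 6 of the 9 genes, S1pr1, S1pr2, S1pr3, Sphk2, Spns2 and Sgpl1, beside 58.7% of all genes. In the knockout set S1pr4 was gained, 1 of the 2 members that could have been, beside 17% of such genes over the genome; this call chose the family and supports nothing. None of the 6 members that could have been lost was lost (0.0466% of genes). In the C313Y set 0 of 1 was gained and 0 of 7 lost, where 2.55% and 0.632% of genes were. In the C442G set no member could be gained and 0 of 7 were lost, where 3.29% and 0.221% of genes were. Apart from S1pr4, no member was gained or lost in any set.

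The same count over regions, added after seeing the data, gave 7 of 33 gained in the knockout set (21.2%), beside 13.9% of all regions, and 0 of 7 lost (0.455%). The 7 lay at S1pr1, S1pr2, S1pr3, Sphk1 and, with 3, Sgpl1. In the C313Y set the Sgpl1 region called in every mutant was the 1 gained of 25, beside 3.81%, and 0 of 15 were lost (4.37%). In the C442G set 0 of 13 were gained (9.94%) and 0 of 23 lost (2.28%). Of the 7 gained in the knockout set, 3 were present in all 4 wild types of the other sets and 1, near the lower-numbered end of Sgpl1, in none. With lists of equal length 1 of the 7 was still called, that of S1pr1. The share of all gained regions that stays called with such lists was not counted, so this count has no background. Regions called in all 12 libraries made up 7 of 47 (14.9%), beside 8.16% of all regions.

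Covered length was tested over the 3 sets together. For every protein-coding gene the difference between mutant and wild-type means of log2(bp + 100) was averaged over the sets and tested by an exact two-sided permutation test within sets, with Benjamini-Hochberg adjustment over 21631 genes; the smallest p that this design allows is 0.00926. Leaving out S1pr4, the mean difference was above 0 in 7 of the 8 members, as it was in 74.2% of all genes, and its median was 0.46 over those 8, 0.26 over all genes and 0.35 over genes with a peak. No gene passed an adjusted p of 0.05 (0% of genes), and no member did. Without adjustment 4716 genes (21.8%) and 1 of the 8 tested members, S1pr2, had a p under 0.05.

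**Figure D5:**
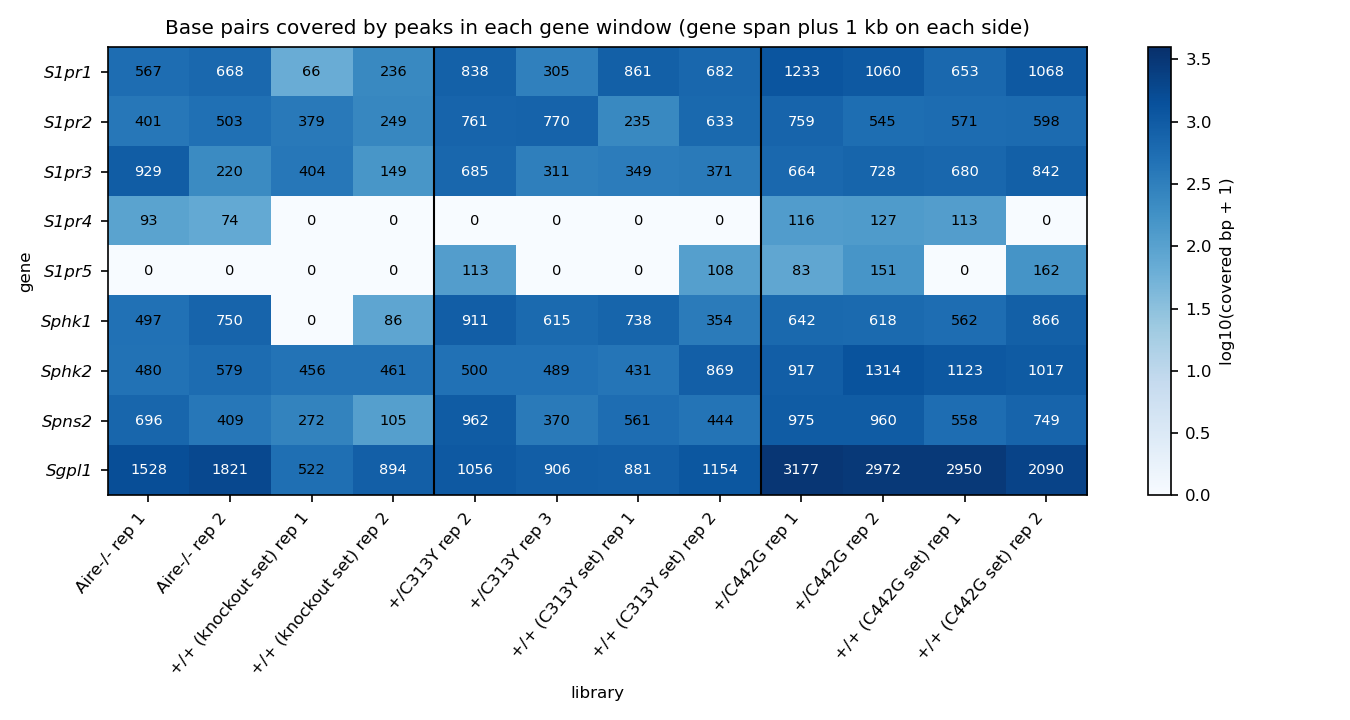
Base pairs covered by peaks in the window of each gene (rows) in each library (columns); the number is the covered length in bp and the colour its log10 after adding 1. S1pr4 and S1pr5 have the lowest rows. The 2 wild types of the knockout set, at 0 to 894 bp, are the 2 palest columns in the rows of S1pr1, Sphk1 and Spns2.

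Sphk1 had the largest mean difference, 0.91 (SE 0.76 over the 3 sets; exact permutation p = 0.111, adjusted p = 0.313), and 92.6% of all genes had a lower one. Nearly all of it came from the knockout set, at 2.38, beside 0.46 in C313Y and -0.13 in C442G. Its size depended on the setting, at 0.39 with lists of equal length within sets and at 0.25 and 1.57 with 1000 and 10 bp added in place of 100 bp. Spns2 followed at 0.65 (SE 0.29; exact permutation p = 0.0556, adjusted p = 0.227) and was above 0 in all 3 sets, at 1.20, 0.24 and 0.51, with a mean of 0.31 for lists of equal length. The difference of S1pr1 was 0.50 (SE 0.61; exact permutation p = 0.259, adjusted p = 0.513), made of 1.60 in the knockout set, -0.49 in C313Y and 0.41 in C442G, and it was -0.043 without the knockout set. S1pr2, at 0.45, was above 0 in all 3 sets with the smallest SE of these, 0.20 (exact permutation p = 0.0370, adjusted p = 0.194).

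The degrading lyase gene Sgpl1 gave 0.47 (exact permutation p = 0.0833, adjusted p = 0.275), again mostly from the knockout set at 1.17, and 0.098 with lists of equal length. S1pr3 (0.30), S1pr5 (0.14) and Sphk2 (-0.02) gave exact permutation p-values of 0.463, 0.833 and 0.926. The value of S1pr3 was 0.017 without the first Aire -/- library and 0.58 without the second. S1pr4, described without a test, stood at 0.87 in the knockout set, 0 in C313Y and 0.60 in C442G. Within the knockout set alone the mutants lay above the wild types without overlap in 6 of the same 8 members, all but S1pr3 and S1pr5, beside 56.7% of all genes, and below in none (0.509%). In the C313Y set 1 of the 8 did so, S1pr2 (21.2% of genes above, 5.27% below), and in the C442G set 2, Spns2 and Sgpl1 (29.3% above, 6.08% below). With 2 against 2 libraries, a single set cannot give a p below 0.333.

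The other genes of the pathway were counted by the same rules. In de novo synthesis and ceramide turnover, which supplies sphingosine, 23 of 30 genes had a peak in all 12 libraries, beside 58.7% of all genes. In the knockout set Acer1, the 1 gene of this list that could be gained, was gained, as 17% of such genes were over the genome, and 0 of 25 were lost. Acer1 codes for an alkaline ceramidase that releases sphingosine from ceramide. It had 97 and 127 bp in Aire -/-, 0 bp in the wild types of that set and in all C313Y libraries, and 475 to 683 bp in the 4 libraries of the C442G set. Among phosphatases, carriers and transporters 6 of 8 had a peak in all 12 and none was gained or lost. Apom, whose protein carries the lipid in blood, had no peak in any library.

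Among genes acting at and below the receptors, 12 of 13 had a peak in all 12 libraries. The exception, Cd69, whose protein binds S1PR1 and takes it off the cell surface, was the 1 gene of its list that could be gained in the knockout set and was gained (17% of such genes over the genome), with 355 and 115 bp against 0 bp in both wild types. It was present in 9 of the 12 libraries, so it too was seen in wild types of the other sets. Receptors and synthesis of lysophosphatidic acid, a related lipid signal, had a peak in all 12 in 2 of 7 genes, with Lpar4 in none. No gene of the 4 lists was gained or lost in the C313Y or C442G set. The median difference in covered length was 0.38, 0.54, 0.53 and 0.54 on the log2 scale for the 4 lists in the order given. It was 0.26 over all genes and 0.35 over genes with a peak. An adjusted p under 0.05 was reached by 0 genes of each list. Unadjusted, it was reached by 6 of 30, 2 of 8, 5 of 13 and 1 of 7, beside 21.8% of all genes.

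The genes closest in pattern were sought for the members with peaks in some libraries only, by the smallest mean absolute difference of log2(bp + 100) over the 12 libraries. For S1pr4 these were Cyp2c37 (0.09), Klhl6 (0.12) and Ceacam3 (0.12). The S1pr4 values compared are the 0 to 127 bp of the Ncln peak inside the window, counted in 5 libraries. They include the gain that chose the family, so this likeness is a description of few bp. For S1pr5 they were Rnf138rt1 (0.14), Cyp8b1 (0.15) and Spata21 (0.17), and for Sphk1 they were Lgr6 (0.24), Sema4f (0.26) and Nat14 (0.26).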

How the data were processed

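ATAC-seq peak lists of 12 libraries were analysed, 1 list per library, so peaks were called per sample. Per the submitters' processing notes, cutadapt, Bowtie2, Picard and MACS2 were used with the build mm10; their versions, any read shifting and any control were not given in the sources used here. Of the deposited lists, 8 give for each broad peak its position, the authors' score, a fold enrichment (ratio) over background, and −log10 of p and of q. The 4 deposited lists of the C313Y set hold positions only, so their threshold and strengths could not be examined. Strengths are the authors' and were compared by rank within 1 list.

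Only peaks on the 19 autosomes and X entered the counts. Genes and promoter sequences came from RefSeq tables of GRCm38.p6. Presence, width and covered length were computed per gene window with Python 3.11.15, numpy 2.4.6 and pandas 2.3.3, with 100 bp added before the log2. The exact permutation test was run for all 21631 genes with Benjamini-Hochberg adjustment and was tested on simulated data. Without read counts, precision is limited by the 2 libraries per group. Replicate numbers shared by 2 groups did not pair the libraries. Between 0.226% and 0.395% of peaks were identical in replicates, so each library counted as 1. Members and lists were chosen with earlier results of these data known, and S1pr4 was left out of testing for that reason. By rule, the genes named are the 9 members, genes sharing their peaks, pathway genes gained, lost or without any peak, and the 3 most similar genes of members with a peak in some libraries only. Outside this rule, the neighbours Gna15 and Keap1 and single marker genes are named. Gnai1, Rhoa and Foxo1 were picked after their values were seen. Alternatives were windows of 0, 500 and 2500 bp, a 50% overlap, a minimum −log10 q of 3, equally long lists, pseudocounts of 10 and 1000 bp, a filter on genes without a peak, leaving out each replicate, and a replicate block; a window of 1300 bp and leaving out the knockout set were added after seeing the data. Marker lists were counted for mTEChi, cortical epithelium, T cells, B cells, dendritic cells and macrophages, endothelium, and fibroblasts and mural cells.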

Additional observations from a re-analysis of the deposited data

How the results depend on the processing

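The count of members gained in the knockout set, 1 as reported, was 0 with windows of 0, 500, 1300 and 2500 bp and with at least 50% of the peak inside the window. With −log10 q of at least 3 it was 4 of the 5 that could be gained, a threshold at which 20.2% of such genes were gained. These were S1pr1, S1pr2, Spns2 and S1pr4, whose gain chose the family. S1pr1, S1pr2 and Spns2 had peaks in both wild types of the set, at −log10 q of 1.25 to 2.84, which this threshold removes. Their calls are therefore no appearance of a peak. The count ran from 1 to 2 when each replicate was left out (Sphk1 joined without the second wild type). In the C442G set the count ran from 0 to 1: S1pr4 without the first wild type, S1pr5 without the second. With lists of equal length over all libraries, cut to the widest peaks because 4 lists have no strengths, 2 members (Sphk2 and Sgpl1) in place of 6 had a peak in all 12. The share of all genes at this cut was not counted. Lists of equal length within a set held the strongest peaks, or the widest in the C313Y set. The mean log2 difference changed sign for S1pr3 with those lists (-0.35), for S1pr2 (-0.17) and S1pr5 (-0.0046) with lists of equal length within sets, for Sphk2 with a 2500 bp window (0.16) and for S1pr1 without the knockout set (-0.043). Leaving out 1 replicate moved Sphk2 between -0.17 and 0.12 (0.02 without Aire -/- 1, 0.06 without +/C442G 1, 0.12 without C313Y wild type 2) and S1pr5 between -0.091 and 0.37 (-0.04 without +/C313Y 2 or C313Y wild type 1, -0.091 without C442G wild type 1). The same gave 0.30 to 0.71 for S1pr1 (lowest and highest without +/C313Y 2 and 3), 0.26 to 0.64 for S1pr2 (without C313Y wild types 1 and 2), 0.017 to 0.58 for S1pr3 (without Aire -/- 1 and 2), 0.76 to 1.05 for Sphk1, 0.46 to 0.85 for Spns2 and 0.36 to 0.59 for Sgpl1. With 1000 bp added, S1pr1 and S1pr2 stood at 0.17, S1pr3 at 0.12, Spns2 at 0.25 and Sgpl1 at 0.28, and with equal lists within sets S1pr1 stood at 0.11 and S1pr3 at 0.039. The causes were not tested. Equal lists lowered the median over all genes from 0.26 to 0.06. The genes with an unadjusted p under 0.05 fell from 4716 to 2043 (over all libraries) and 2242 (within sets). Without the knockout set the 36 assignments of labels allow no p under 0.05, so the count of 0 genes there was fixed in advance. No setting gave a member an adjusted p under 0.05. The replicate block left S1pr2 at 0.45 with an exact permutation p of 0.0625 and the count of adjusted calls at 0. It covered the knockout and C442G sets, where same-numbered libraries had correlations of 0.02 and 0.01 in their deviations. The C313Y set, with mutants numbered 2 and 3 and wild types 1 and 2, was not blocked, and its value was 0.04. The 2 libraries per group and unequal lists, with no read counts, limit every statement, and 4 lists have no strengths.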

Other observations

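The inner S1pr1 peak was narrower than the median of like-ranked peaks in 5 of the 6 lists with strengths that hold it. Its 110 and 107 bp in Aire -/- compare with medians of 281 and 206 bp over the peaks of like rank in the same lists, and 8.33% and 13.2% of those were narrower. In +/C442G 1 library had 126 bp against 243 bp and the other 417 bp against 364 bp, and the first wild type of that set had 115 bp against 298 bp. The second wild type had 159 bp against 205 bp, with 37.2% of like-ranked peaks narrower.

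S1pr5 also had a peak that the 1 kb window leaves out. It lay 1277 to 1337 bp beyond the 3′ end in all 12 libraries, towards Keap1, with ranks of 28.2% to 93.8% in the 8 lists with strengths, above 80% in 6 of them, while the 3 ranked peaks inside the window reached at most 33.1%. Over the genome 16 of the 1173 genes gained in the knockout set (1.36%) had a peak within 1300 bp in all 4 libraries of the set, as S1pr4 did.

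The G protein gene Gnai1, singled out after its values were seen, was the 1 gene of the receptor signalling list with a negative difference at an unadjusted p under 0.05, at -0.60 (exact permutation p = 0.00926, the smallest possible, adjusted p = 0.132). Rhoa of the same list had the same p with the opposite sign, at 0.41 (exact permutation p = 0.00926, adjusted p = 0.132). Foxo1 had the largest difference of the list, 0.94 (exact permutation p = 0.0185, adjusted p = 0.155). An unadjusted p under 0.05 was reached by 5 of the 13 genes of this list, beside 21.8% of all genes. No gene of the list passed the adjusted threshold.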
